A study of Drosophila melanogaster with 8 samples.

Results

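The regions described here are the ATAC-seq peaks of chromosome 4 of Drosophila melanogaster. ATAC-seq marks open chromatin by the places where a transposase can cut the DNA. All peaks placed on chromosome 4 were taken from both deposited lists, which gave 187 of 21357 peaks in the primordial germ cell (PGC) list and 111 of 19319 in the somatic list, together 298 of 40676. PGCs are the embryonic precursors of eggs and sperm. By cell sorting, GFP-positive cells (PGCs) were parted from GFP-negative cells (somatic) of overnight embryos kept at 25°C, labelled as late embryos for both cell types and all of genotype Vas::EGFP, in which the germline protein Vasa carries a green tag. GFP-negative cells are all cell types of the embryo that lack the tag, so the somatic list is a mixture. Each cell type had 2 libraries, made from 100000 to 130000 cells with 13 PCR cycles, and each list was called on the average of both.

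Chromosome 4, also called the dot or Muller F chromosome, is the smallest chromosome of the fly. It is known for combining active genes with features of heterochromatin: it is rich in transposable element copies, carries HP1a and methylated lysine 9 of histone H3, which the methyltransferase Eggless lays down there, and is bound along its genes by the chromosome-specific protein Pof. Its best known repeats are the DNA transposons 1360 and INE-1. Many of its genes are long and surrounded by such copies.

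The lists held no replicate spread and no read depth, so peaks were counted and set side by side without a test between the cell types. Intervals are exact 95% Clopper-Pearson intervals of a share and cover counting error only. Peak heights are averaged RPKM (reads scaled to interval length and to the mapped reads of the library) at the summit. As a check of the sort, a start site peak was present at 6 of 6 germline genes (vas, nos, pgc, ovo, aub, tej) in the PGC list and at 2 of 6, nos and tej, in the somatic list. Over all protein-coding genes the shares were 51.8% in the PGC list and 31.2% in the somatic list. The somatic 2 of 6 is near that share, and the markers were not tested against it. A start site peak was present in both lists at all 6 somatic tissue genes (Mef2, trh, wg, elav, repo, grh), with heights of 152.6 to 742.3 RPKM in the PGC list and 61.7 to 237.3 RPKM in the somatic list, so these markers did not separate the lists. What part other cells in the PGC sort had in the results was not tested.

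A few kinds of sequence recur in the results and are shown first, all from the release 6 genome. The first are 150-base windows centred on PGC summits inside copies of 1360, the 4 highest that touch no annotated UTR. They lie at chr4:306701-306850 before Syt7 (plus strand), chr4:1268601-1268750 in a Cadps intron (minus strand), chr4:207601-207750 between CG31998 and Crk (plus strand) and chr4:33901-34050 in a PlexB intron (plus strand), each written along the copy's strand. Capitals mark every GAGAG on either strand, the letters to which GAGA factor is known to bind.
1360 before Syt7: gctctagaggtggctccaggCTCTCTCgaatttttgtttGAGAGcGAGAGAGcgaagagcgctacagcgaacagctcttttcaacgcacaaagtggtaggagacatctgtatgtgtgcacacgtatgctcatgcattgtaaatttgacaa
1360 in Cadps: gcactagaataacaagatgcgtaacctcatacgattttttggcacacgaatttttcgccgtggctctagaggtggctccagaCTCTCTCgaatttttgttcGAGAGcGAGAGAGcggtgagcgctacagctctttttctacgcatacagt
1360 before Crk: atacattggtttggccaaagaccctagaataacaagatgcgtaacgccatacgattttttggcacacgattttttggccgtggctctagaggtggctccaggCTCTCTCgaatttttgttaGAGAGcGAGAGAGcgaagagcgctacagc
1360 in PlexB: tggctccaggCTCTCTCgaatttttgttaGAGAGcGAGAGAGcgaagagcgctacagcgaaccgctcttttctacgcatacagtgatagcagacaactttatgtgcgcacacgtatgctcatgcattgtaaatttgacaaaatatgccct

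The second are the 120 bases before the start site at 4 genes with a high PGC peak, on the strand of the gene: gw (chr4:660609-660728, minus), zfh2 (chr4:501690-501809, plus), mGluR (chr4:936699-936818, plus) and PlexA (chr4:1027102-1027221, minus). Capitals mark matches, on either strand, to GAGAG, to TATCGATA, known as the DNA replication-related element, or to TGATAA, the letters bound by GATA factors. The gw bases held no match to these or to the other 3 motifs searched.
gw: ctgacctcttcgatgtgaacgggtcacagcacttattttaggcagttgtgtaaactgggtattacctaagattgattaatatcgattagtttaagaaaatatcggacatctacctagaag
zfh2: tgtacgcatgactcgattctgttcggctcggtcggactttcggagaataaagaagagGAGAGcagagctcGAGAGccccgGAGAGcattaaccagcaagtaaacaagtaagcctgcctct
mGluR: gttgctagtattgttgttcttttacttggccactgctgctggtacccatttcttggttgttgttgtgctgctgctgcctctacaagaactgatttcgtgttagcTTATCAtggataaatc
PlexA: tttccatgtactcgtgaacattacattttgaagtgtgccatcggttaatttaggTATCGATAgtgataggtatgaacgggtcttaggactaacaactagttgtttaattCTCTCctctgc

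The last is the start of the highest somatic peak of the chromosome that no PGC peak overlapped (chr4:797551-797598, plus strand), a tandem repeat whose first unit is in capitals.
Repeat: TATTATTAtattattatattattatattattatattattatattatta

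Chromosome 4 had 139 peaks per Mb in the PGC list and 82.3 per Mb in the somatic list, over 1348131 bp. PGC peaks covered 57550 bp or 4.27% of it and somatic peaks 31200 bp or 2.31%. On the other chromosomes (X and the arms of 2 and 3) there were 146 PGC and 131 somatic peaks per Mb. In the full lists the PGC density of chromosome 4 was thus near that of the rest, and the somatic density was lower. Chromosome 4 had 1.68 PGC peaks per somatic peak, against 1.58 on X and 1.05 to 1.10 on the 4 large autosomal arms. The lists differ in length, so the 10000 highest peaks of each were also compared. Of these, 134 PGC and 76 somatic peaks lay on chromosome 4, a ratio of 1.76, against 1.63 on X and 0.921 on the large arms together. Per Mb these were 99.4 PGC and 56.4 somatic peaks, against 74.4 and 74.9 on the other chromosomes. In this setting the PGC density of chromosome 4 was thus higher than that of the rest, and the somatic density again lower. PGC peaks of chromosome 4 had a median height of 72.4 RPKM and somatic peaks of 60 RPKM, against 62.1 and 56.9 RPKM on the other chromosomes. Both lists had a median width of 200 bp on chromosome 4.

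**Figure D1:**
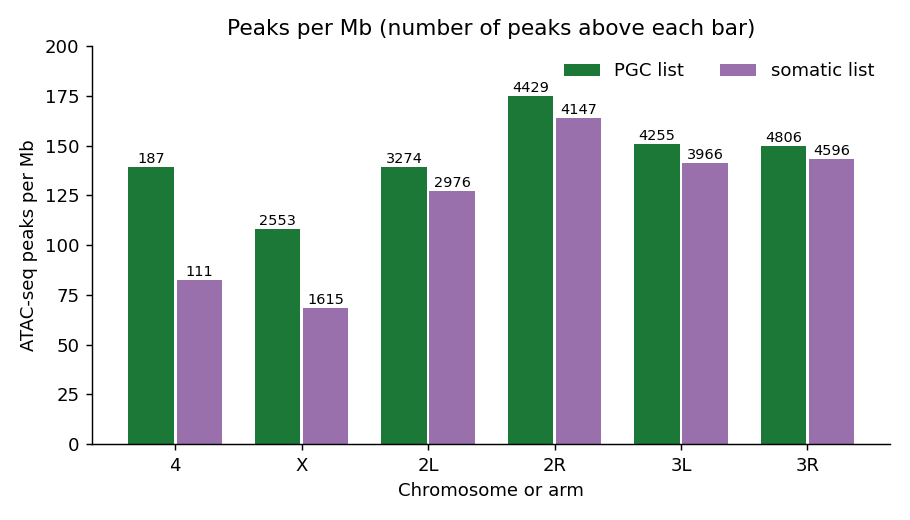
Peaks per Mb (vertical axis) on chromosome 4, X and the 4 large autosomal arms, for the PGC list (left bar of each pair) and the somatic list (right bar), with the number of peaks above each bar. The PGC bars of chromosome 4 and X stand at 139 and 108 per Mb, and their somatic bars at 82.3 and 68.6 per Mb.

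Of the PGC peaks of chromosome 4, 80 of 187 (42.8%, interval 35.6 to 50.2) shared 1 bp or more with a somatic peak, close to the 39.3% over all PGC peaks of the 6 chromosomes and arms. Of the somatic peaks, 84 of 111 (75.7%, interval 66.6 to 83.3) shared bases with a PGC peak, against 45.9% over all somatic peaks and 59.8% on X. With a reciprocal overlap of 50% required, the shares on chromosome 4 were 21.9% of PGC and 36.9% of somatic peaks. No share over all peaks is given at that setting, so these are not set against the values above. The 107 PGC peaks without a somatic partner had a median height of 64.3 RPKM, 42 had their summit within 500 bp of a start site, and 10 reached 100 RPKM. The 27 somatic peaks without a PGC partner had a median height of 54.7 RPKM, 1 had its summit at a start site (of the non-coding gene CR45123), and none reached 100 RPKM. Of these 27 peaks, 14 were 50 bp wide, the smallest width in the lists.

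Among the 80 shared PGC peaks the median ratio of PGC to somatic height was 1.40, with quartiles of 1.06 and 1.97. The same median was 1.47 on X and 1.12 on the large arms. The somatic peak was the higher one in 15 of the 80 (18.8%), against 35.5% on the other chromosomes. Of these 15, 9 had their summit in a transposable element copy. Put the other way, the somatic peak was higher at 9 of 18 shared peaks in copies and at 6 of 62 outside them. Some of these shared peaks lie in the same copy or overlap the same somatic peak.

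**Figure D2:**
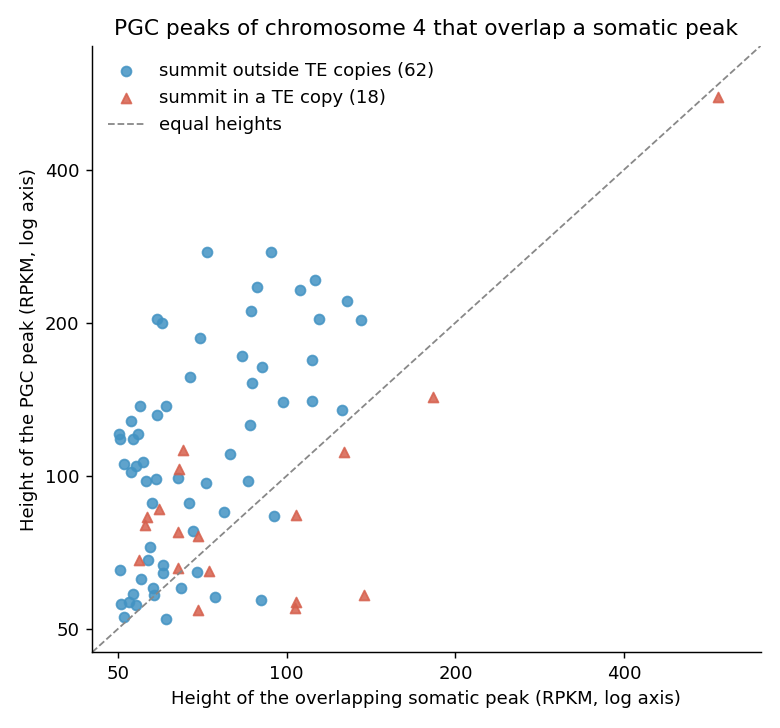
Height of each PGC peak of chromosome 4 that overlaps a somatic peak (vertical axis, RPKM, log scale) against the height of that somatic peak (horizontal axis, RPKM, log scale). Triangles (18) have their summit in a transposable element copy and circles (62) do not; 9 triangles and 6 circles lie below the dashed line of equal heights.

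Start sites were examined next, to ask which genes of the chromosome were open in each list. Of 80 protein-coding genes, 60 (75%, interval 64.1 to 84) carried a PGC peak no more than 500 bp from a start site of the annotation, against 51.8% of all protein-coding genes, and 37 (46.2%, interval 35 to 57.8) had a somatic one, against 31.2%. Both lists had a peak at 37 genes. The PGC list alone had one at 23 genes (28.8%, interval 19.2 to 40), against 24.3% of all genes. Among peaks of at least 60 RPKM it was alone at 36 genes, and 20 genes had a somatic start site peak. No share over all genes is given at that minimum, so these counts are not set against the shares here. The 10000 highest peaks of each list were compared as well. There 70% of the 80 genes (interval 58.7 to 79.7) had a PGC start site peak, against 42.5% of all genes. A somatic one was present at 32.5% (interval 22.4 to 43.9), against 22.8%. In the full lists the somatic list was alone at 0 genes, which allows a share of up to 4.51%, against 3.72% of all genes. Neither list had a start site peak at 20 genes (25%), against 44.5% of all genes. Neighbours can share a peak: 7 of the 75 PGC start site peaks and 5 of the 40 somatic ones served 2 or more genes.

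Genes of chromosome 4 are long, with a median of 10090 bp against 2156 bp elsewhere. Among genes of at least 5000 bp the PGC list had a start site peak at 47 of 62 (75.8%, interval 63.3 to 85.8) on chromosome 4 and at 71.1% of 3422 elsewhere. The somatic list had one at 29 of the 62 (46.8%, interval 34 to 59.9) and at 46.4% elsewhere. For these long genes the values elsewhere lay inside the intervals of chromosome 4 in both lists. On X, which was similar in its ratio of PGC to somatic peaks, 72.5% of such genes had a PGC peak and 39.1% a somatic one. Among genes under 5000 bp the PGC list had a start site peak at 13 of 18 (72.2%, interval 46.5 to 90.3) on chromosome 4 and at 45.2% elsewhere, a value below that interval. The somatic list had one at 8 of the 18 (44.4%, interval 21.5 to 69.2) and at 26.1% elsewhere, inside the interval.

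At all 37 genes open in both lists the highest PGC start site peak was higher than the highest somatic one, by a median ratio of 2.07 and a range of 1.05 to 3.83. The peaks compared at a gene need not lie at the same start site. No such ratio is given for all genes elsewhere, so the higher PGC peaks are not read as particular to chromosome 4. At the 6 somatic tissue genes, all on other chromosomes, the PGC peak was also higher, except at Mef2 (152.6 RPKM PGC, 165.6 RPKM somatic). Over chromosome 4 genes with a peak, the highest start site peak had a median of 119 RPKM in the PGC list and 61 RPKM in the somatic list. Of the 37 genes with a PGC start site peak of at least 100 RPKM, 29 also had a somatic one. The order of genes differed between the lists. In the groups that follow, counts of open genes stand beside the shares for all genes of the chromosome, 75% in the PGC list and 46.2% in the somatic list, and no group was tested against them.

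**Figure D3:**
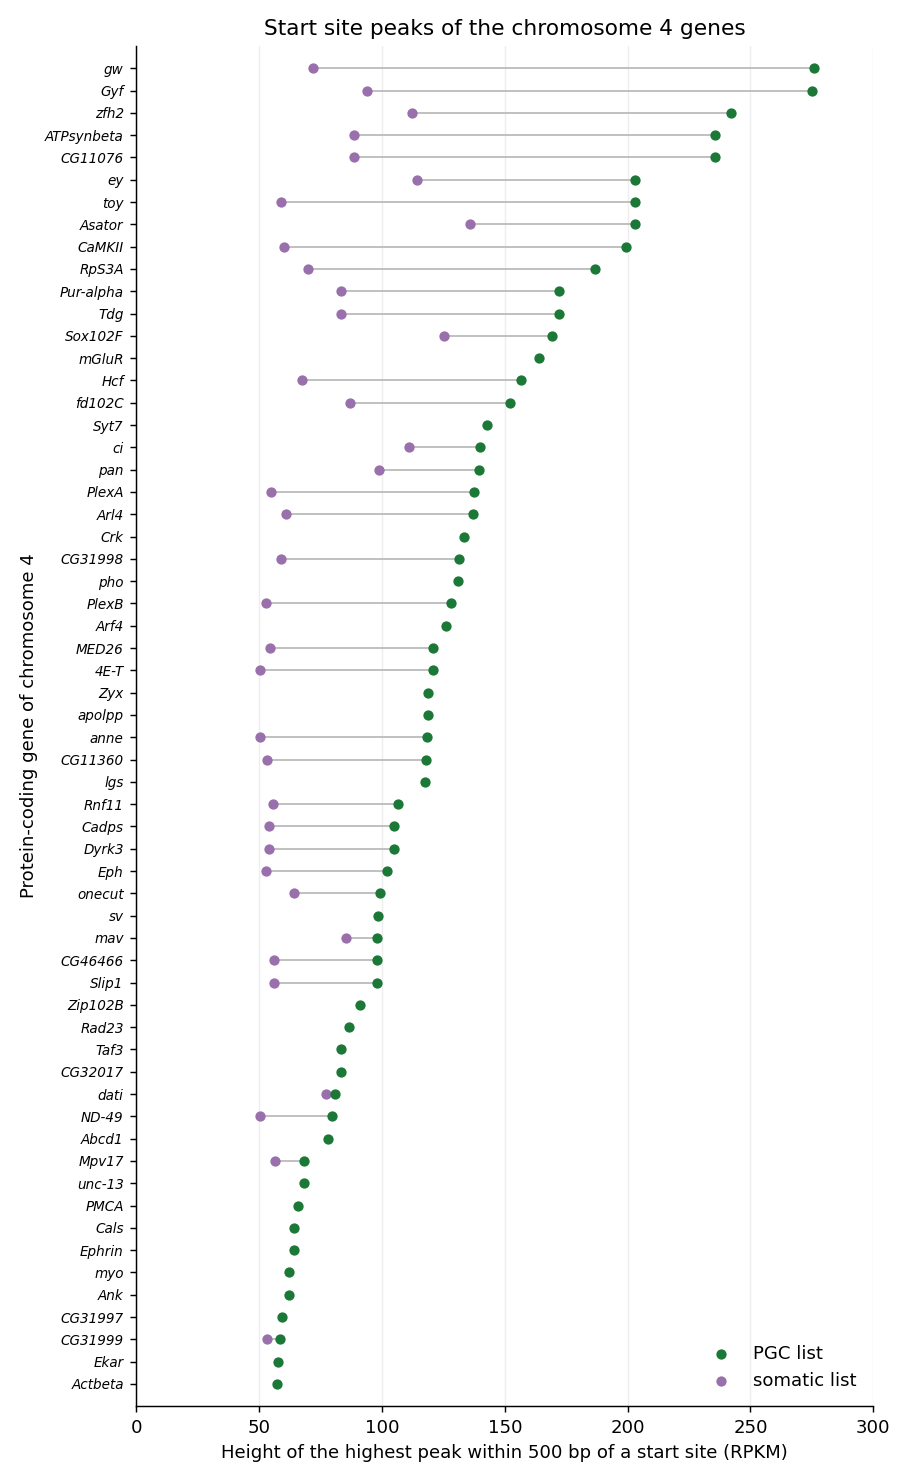
Height in RPKM (horizontal axis) of the highest peak within 500 bp of a start site for the 60 protein-coding genes of chromosome 4 with a PGC start site peak, in order of that height, with the PGC list in green and the somatic list in purple joined by a line. The PGC point lies to the right at all 37 genes with both, by the smallest ratio at dati (80.8 RPKM PGC, 77.3 RPKM somatic) and by the largest at gw (276.0 RPKM PGC, 72.1 RPKM somatic), and 23 genes have a PGC point alone. The PGC and somatic peaks of dati lie at different start sites.

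Transcription factor genes were open at 12 of 15 start sites in the PGC list and at 10 of 15 in the somatic list, against 75% and 46.2% of all genes of the chromosome. The Pax6 genes ey and toy, which direct eye formation, had near-equal PGC peaks of 203.2 RPKM (703951 to 704700) and 203.1 RPKM (989451 to 989750). In the somatic list ey had 114.4 RPKM and toy 58.7 RPKM. The zinc finger and homeodomain gene zfh2 had 242.2 RPKM in the PGC list and 112.2 RPKM in the somatic list. In both lists zfh2 had a further peak in its intron, at 506851 to 508750 in the PGC list (232.1 RPKM) and at 506801 to 508700 in the somatic list (105.5 RPKM). Sox102F, of the Sox family, had its highest PGC peak at one start site (834051 to 834650, 169.3 RPKM) and its highest somatic peak near another (807751 to 808300, 125.4 RPKM). Both places had a peak in both lists. The first had 111.1 RPKM in the somatic list, and the second had 134.6 RPKM in the PGC list. The forkhead gene fd102C had 152.2 RPKM in the PGC list and 86.9 RPKM in the somatic list. Hcf, a chromatin cofactor, had 156.4 and 67.3 RPKM in the PGC and somatic lists.

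At ci, the Gli factor of the Hedgehog pathway, the PGC start site peak had 140.1 RPKM and the somatic one 110.9 RPKM. A higher peak lay upstream of ci in both lists, at 58901 to 59350 in the PGC list (220.3 RPKM) and 58901 to 59400 in the somatic list (128.1 RPKM). At pan, the TCF factor of Wnt signalling, the values were 139.4 RPKM in the PGC list and 98.6 RPKM in the somatic list. The zinc finger gene dati had 80.8 RPKM in the PGC list and 77.3 RPKM in the somatic list, at different start sites. Its somatic peak overlapped a PGC peak of 85.0 RPKM that lay more than 500 bp from a start site. The neuronal factor onecut had 99.0 RPKM in the PGC list and 64.0 RPKM in the somatic list. Open in the PGC list only were pho (131.1 RPKM), which encodes the DNA-binding subunit that recruits Polycomb proteins, and the Pax2 gene sv (98.3 RPKM). Mitf, NfI and fuss had no start site peak in either list. Between fuss and toy lay a peak of 163.5 RPKM in the PGC list (979701 to 980400) and 90.4 RPKM in the somatic list, nearest to the start of fuss but more than 500 bp before it. Unknown bases fill 17000 bp of the assembly at 1200663 to 1217662, inside Mitf.

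All 9 signalling genes listed had a PGC start site peak and 4 of the 9 had a somatic one, against 75% and 46.2% of all genes of the chromosome. The semaphorin receptors PlexA and PlexB had 137.3 and 128.3 RPKM in the PGC list, against 54.8 and 52.8 RPKM in the somatic list. The TGF-beta family ligand mav had 97.9 RPKM in the PGC list and 85.4 RPKM in the somatic list, while its relatives myo (62.2 RPKM) and Actbeta (57.3 RPKM) had a PGC peak alone. The receptor Eph had 101.9 RPKM in the PGC list and 52.7 RPKM in the somatic list, and its ligand Ephrin had 64.1 RPKM in the PGC list alone. The adaptor gene Crk (133.5 RPKM) and lgs (117.7 RPKM), which links Armadillo to its Wnt coactivator, had a PGC start site peak alone. Within the body of lgs 3 somatic peaks of 50.1 to 56.8 RPKM lay in exons without a PGC partner.

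Housekeeping genes were open at 11 of 12 start sites in the PGC list and at 9 of 12 in the somatic list, against 75% and 46.2% of all genes of the chromosome. The highest start site peaks of the PGC list were those of gw and Gyf in this group. The microRNA effector gw had 276.0 RPKM in the PGC list (659751 to 660750) and 72.1 RPKM in the somatic list. The translational regulator Gyf had 275.2 RPKM in the PGC list (866751 to 867250) and 93.9 RPKM in the somatic list. ATPsynbeta, a subunit of mitochondrial ATP synthase, shared a peak with its neighbour CG11076, at 235.4 RPKM in the PGC list and 88.6 RPKM in the somatic list. The ribosomal protein gene RpS3A had 186.8 RPKM in the PGC list and 70.0 RPKM in the somatic list. The divergent pair Tdg, a thymine DNA glycosylase gene, and Pur-alpha shared 1 peak of 172.2 RPKM in the PGC list. It overlapped 2 somatic peaks, 1 of 83.2 RPKM with its summit in a Tdg exon and 1 of 52.8 RPKM at a Pur-alpha start site. The small GTPase gene Arf4 (126.1 RPKM) and the repair gene Rad23 (86.5 RPKM) had a PGC start site peak alone. The translation initiation factor gene eIF4G1 had none in either list. Outside the role lists, the kinase gene Asator had the highest somatic start site peak of the chromosome (135.9 RPKM, 488901 to 489550) and 202.9 RPKM in the PGC list.

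Genes of the synapse and neuron had a start site peak at 6 of 10 in the PGC list and at 1 of 10 in the somatic list, against 75% and 46.2% of all genes of the chromosome. The 1 gene with a somatic peak was Cadps, which shares its peak with Dyrk3 (104.7 and 53.8 RPKM in the PGC and somatic lists). The metabotropic glutamate receptor gene mGluR had the highest PGC start site peak without a somatic one on the chromosome (163.8 RPKM, 936451 to 936750). The synaptotagmin gene Syt7 followed with 142.8 RPKM, a peak whose summit lies in the 1360 copy printed above, 295 bp before the start site. The vesicle priming gene unc-13 (68.2 RPKM), the calsyntenin gene Cals (64.3 RPKM) and the glutamate receptor gene Ekar (57.5 RPKM) had a PGC peak alone. Neither list had a start site peak at Gat, CaMKI, dpr7 or Kif3C. CaMKII, not among the 10, had 199.4 RPKM in the PGC list and 60 RPKM in the somatic list.

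Muscle and cytoskeleton genes were open at 3 of 4 start sites in the PGC list and at 0 of 4 in the somatic list, against 75% and 46.2% of all genes of the chromosome. Zyx, which encodes the focal adhesion protein zyxin, shared a PGC peak of 118.8 RPKM with the lipophorin gene apolpp, and the ankyrin gene Ank had 62.1 RPKM and the calcium pump gene PMCA 65.7 RPKM. The giant muscle protein gene bt had no peak anywhere in its body or within 500 bp of it in either list, and lies in the longest stretch without a PGC peak (56950 bp, 720601 to 777550). Besides bt, 10 genes had no peak at all in either list, namely CG32006, yellow-h, CG1674, NfI, CG1909, Gat, CG11155, CG33521, PIP4K and Mitf. The other 9 of the 20 genes without a start site peak had a PGC peak in the body, of 51.1 to 66.5 RPKM, and 1 of them, CG33978, a somatic one.

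For the genes listed as regulators of chromosome 4 or of heterochromatin, wherever they lie, 8 of 9 had a PGC start site peak and 4 of 9 a somatic one. The shares were 51.8% and 31.2% of all protein-coding genes of the genome. This list also held pho, described above for Polycomb and counted among the transcription factors too. Pof had 151.5 RPKM in the PGC list and 86.2 RPKM in the somatic list, and the methyltransferase gene egg had 58.1 RPKM in the PGC list and 52.2 RPKM in the somatic list. The gene of HP1a had 64.1 RPKM in the PGC list and no somatic start site peak. HP1b had no start site peak in either list.

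By location, 80 of the 187 PGC summits (42.8%, interval 35.6 to 50.2) and 41 of the 111 somatic summits (36.9%, interval 28 to 46.6) lay within 500 bp of a start site, a zone that takes 10.7% of the chromosome. Elsewhere the shares were 37.6% for PGC and 25.7% for somatic summits. Of the 41 somatic promoter peaks, 40 had bases in common with a PGC peak (97.6%, interval 87.1 to 99.9), against 73.8% on the other chromosomes. Of the PGC summits 15.5% lay in exons, 23.5% in introns and 18.2% between genes, and of the somatic summits 17.1%, 25.2% and 20.7% lay in these classes. On the other chromosomes the shares were 24.5%, 21% and 16.9% of PGC summits and 33.4%, 23.1% and 17.8% of somatic ones. Exons outside the promoter zone took 28.4% of the bases of chromosome 4 and 19.7% elsewhere.

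Along the chromosome, counts per 100 kb ran from 7 to 26 PGC and from 1 to 15 somatic peaks up to position 1300000. From 1100001 to 1200000, with 9 gene starts, 7 PGC peaks and 1 somatic peak were found. The longest stretch without a somatic peak began there and ran over 117550 bp (1113151 to 1230700). It held the start of Arf4, pho and Mitf, among other genes, and the 17000 bp of unknown bases inside Mitf. The last PGC peak ended at 1272850 and the last somatic peak at 1260500. The 75281 bp after the last PGC peak held 45 annotated transposable element copies, 42 of them of telomeric families.

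Annotated transposable element copies made up 24.8% of the bases of chromosome 4, against 5.74% elsewhere. Their bases held 53 PGC summits (28.3%, interval 22 to 35.4) and 27 somatic summits (24.3%, interval 16.7 to 33.4), near their share of the bases. On the other chromosomes copies held 8.46% of PGC and 10.8% of somatic summits. Without these summits, 134 PGC and 84 somatic peaks remained on chromosome 4.

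The transposon 1360 took 29 of the 53 PGC summits in copies and 3 of the 27 somatic ones. Of its 60 copies on chromosome 4, nested ones included, 24 (40%, interval 27.6 to 53.5) held a PGC summit and 2 (3.33%, interval 0.406 to 11.5) a somatic one. Elsewhere 22.9% of 376 copies (interval 18.7 to 27.5) held a PGC summit and 3.99% a somatic one. The PGC intervals thus met at 27.6 and 27.5. A summit in nested copies counted for each of them, and the intervals take copies as independent. No difference is thus read from these limits. Among the 10000 highest peaks of each list the PGC intervals overlapped. There 15 of 60 copies (25%, interval 14.7 to 37.9) on chromosome 4 and 13.3% (interval 10 to 17.2) elsewhere held a PGC summit. The somatic intervals overlapped in both settings. INE-1, the most numerous family with 344 copies, had a PGC summit in 6 (1.74%) and a somatic one in 3 (0.872%), against 0.74% and 0.423% elsewhere. All 5 somatic summits in INE-1 copies, and 5 of the 9 PGC ones, lay where an R1A1 copy is annotated as well. Cr1a, a retrotransposon, had a PGC summit in 4 of 17 copies and a somatic one in 2 of 17.

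**Figure D4:**
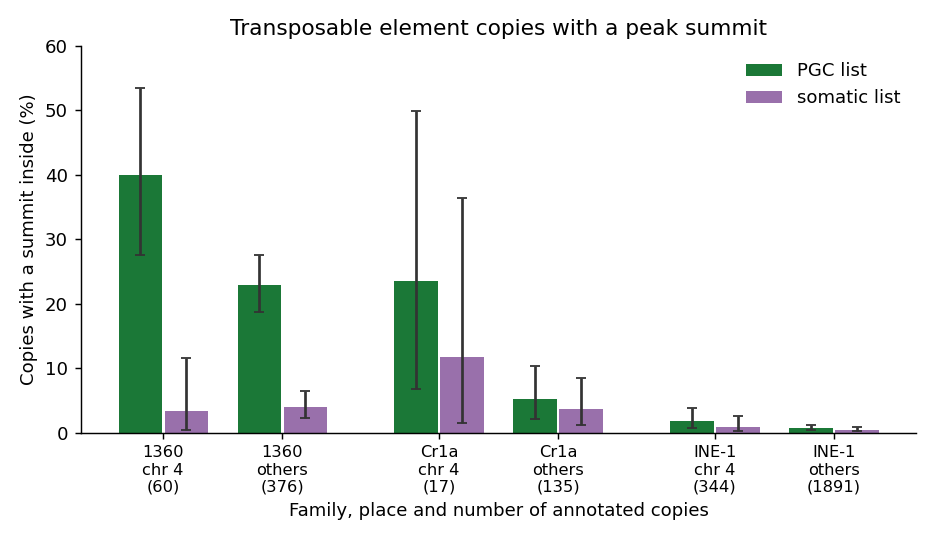
Percent of annotated copies with a peak summit inside (vertical axis) for 1360, Cr1a and INE-1, on chromosome 4 and on the other chromosomes, in the PGC list (left bar of each pair) and the somatic list (right bar), with exact 95% intervals as error bars and the number of copies under each pair. The 1360 copies of chromosome 4 stand at 40% in the PGC list and 3.33% in the somatic list.

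The 29 summits in 1360 copies had heights of 50.9 to 142.8 RPKM with a median of 71.1, and 3 of these peaks overlapped a somatic peak. All 24 copies were at least 500 bp long, of 39 such copies on the chromosome. Inside them the summits sat at the ends: 19 within 200 bp of the 5′ end, 8 within 200 bp of the 3′ end and 2 elsewhere. In 7 copies there was a summit at each of 2 places. The summits lay in introns (12), between genes (12), at start sites (4) and in an exon (1).

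The windows of 150 bases around these summits were alike in sequence, as the 4 printed above show. Of the 29, 26 shared a run of 20 bases with another, and 14 held one and the same run. This run occurred in 25 of the 60 copies, of which 16 held a PGC summit and 9 did not. GAGAG was present in 27 of 29 windows (93.1%, interval 77.2 to 99.2), in 30 of 158 windows around the other PGC summits of chromosome 4 (19%, interval 13.2 to 26) and in 13.3% of windows of that length tiled over the chromosome. Around the 104 PGC summits in 1360 copies of the other chromosomes it was present in 93 (89.4%, interval 81.9 to 94.6). All 24 copies with a PGC summit held GAGAG, and so did 47 of the 60 copies, so 23 copies held these letters without a summit. Copies of a family share their descent, so these windows are not independent of each other.

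**Figure D5:**
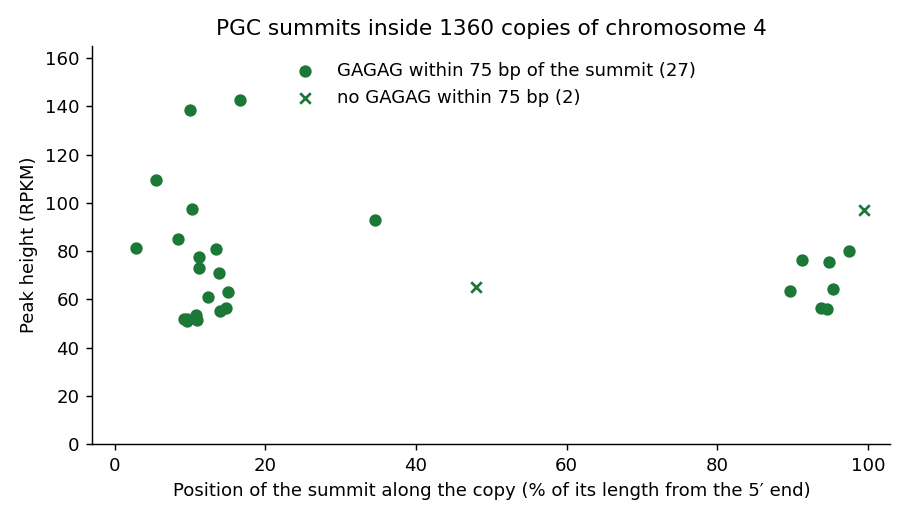
Height in RPKM (vertical axis) of the 29 PGC peaks with a summit inside a 1360 copy of chromosome 4, against the position of the summit in percent of the copy's length from its 5′ end (horizontal axis). Circles (27) have GAGAG within 75 bp of the summit and crosses (2) do not; 19 summits lie within 200 bp of the 5′ end and 8 within 200 bp of the 3′ end.

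In some other copies the somatic peak was higher than the PGC peak. The highest peak of the chromosome in both lists lay over a copy of R1A1, a retrotransposon of the R1 clade that overlaps an INE-1 annotation, at 591651 to 595500 in the PGC list (556.5 RPKM) and 591701 to 595500 in the somatic list (587.9 RPKM), with a second peak of 111.2 RPKM in the PGC list and 126.7 RPKM in the somatic list. A further R1A1 copy in an intron of CG11360 had 142.9 RPKM in the PGC list and 182.7 RPKM in the somatic list. In a pan intron a copy of the I element had peaks of 58.4 and 55.1 RPKM in the PGC list, against 137.3 and 103.6 RPKM in the somatic list. A Stalker2 copy in Rnf11 had 83.6 RPKM in the PGC list and 104.0 RPKM in the somatic list, with 4 more somatic peaks of 52.0 to 77.0 RPKM and no PGC partner. Of the 11 shared PGC peaks in R1A1, I or Stalker2 copies, 8 were lower than their somatic peak and 3 were higher. The 3 were an I copy at 145651 to 146400 (103.1 RPKM PGC, 64.3 RPKM somatic), an R1A1 copy in a toy intron (76.3 RPKM PGC, 69.5 RPKM somatic) and a Stalker2 copy in Rnf11 (68.4 RPKM PGC, 54.6 RPKM somatic). The 11 peaks are not separate comparisons, since they lie in 3 R1A1 copies, 2 I copies and 1 Stalker2 copy. The somatic Stalker2 peak of 104.0 RPKM overlapped 2 of them. The somatic peak of 69.5 RPKM in toy also overlapped 2, of 76.3 and 54.4 RPKM, 1 higher and 1 lower than itself.

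The highest somatic peak without a PGC partner (97.4 RPKM, 797551 to 797950) lay on the 8-base tandem repeat printed above, between MED26 and Sox102F. The first somatic peak of the chromosome (62.6 RPKM, 101 to 250) lay on the same repeat. Over the 6 chromosomes and arms, 5 tracts of at least 5 exact units were found, 2 of them on chromosome 4. All 5 carried a somatic peak, of 62.6 to 139.8 RPKM, and none carried a PGC peak. The lists rest on uniquely mapped reads by their names, and whether that bears on repeat peaks was not tested.

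Peaks of chromosome 4 had a median GC content of 44% in both lists, against 35.2% over the whole chromosome. The peaks of the other chromosomes had 51.4% in the PGC list and 52.3% in the somatic list. In all, 6 motifs were searched on both strands in 200-base windows at the peak midpoints. GAGAG was in 32.1% of PGC and 24.3% of somatic windows, against 17.5% of windows tiled over the chromosome. On the other chromosomes it was in 34.4% of PGC and 31.8% of somatic windows. At promoters it was in 21.2% of PGC windows (interval 12.9 to 31.8), against 32% on the other chromosomes. Somatic promoter windows had it in 22% (interval 10.6 to 37.6), against 35.6%. Away from promoters it was in 40.2% of PGC windows (interval 30.8 to 50.1), against 35.9%. Somatic windows there had it in 25.7% (interval 16 to 37.6), against 30.5%. These PGC shares include the peaks in 1360 copies. In the 150-base windows at PGC summits, GAGAG was in 93.1% of those in 1360 copies of chromosome 4. At its other PGC summits it was in 19%. The higher PGC share away from promoters is thus not read as a trait of peaks outside 1360 copies. TATCGATA was in 3.21% of PGC windows (interval 1.19 to 6.85) and 0.901% of somatic windows (interval 0.0228 to 4.92), against 1.8% of tiled ones, and in 2.32% and 0.786% of PGC and somatic windows of the other chromosomes. CAGCTG was in 3.21% of PGC windows (interval 1.19 to 6.85) and 9.01% of somatic windows (interval 4.41 to 15.9), against 4.39% of tiled ones, and in 13.9% and 13.2% of PGC and somatic windows of the other chromosomes. TGATAA was in 4.81% of PGC and 4.5% of somatic windows, against 15.1% of tiled ones. Its shares on the other chromosomes were 7.33%, 7.35% and 12% of PGC, somatic and tiled windows. CAGGTA was in 4.81% of PGC and 1.8% of somatic windows, against 6.67% of tiled ones. Elsewhere its PGC and somatic shares were 6.34% and 7.18%. GGTCACACT was in 3 PGC windows (1.6%) and 1 somatic window (0.901%), against 0.0751% of tiled ones. Elsewhere its PGC and somatic shares were 1.69% and 0.809%.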

How the data were processed

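Chromatin accessibility was profiled in sorted PGCs and somatic cells, 2 libraries each. The authors trimmed reads with cutadapt 4.2, mapped them to genome release 6 by Bowtie2 2.5.1, dropped duplicates by SAMtools 1.17, made RPKM tracks by deepTools 3.5.4 and averaged both libraries. Peaks were then called on the average with MACS2, with a cutoff set by hand. Each deposited peak carries a score of 10 times its RPKM height, which was divided by 10. Peak borders fall on steps of 50 bp.

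Start sites, genes and transposable element copies came from Ensembl release 115, and bases from the RefSeq release 6 assembly. Overlaps, start site peaks, locations, motifs and exact intervals were computed in Python 3.11.15 with numpy 2.4.6 and scipy 1.17.1, and the functions were tested on simulated data. A start site peak came within 500 bp of an annotated start, and a summit was placed at a promoter within 500 bp, else in an exon, an intron or between genes. Values are given for the highest start site peaks, for members of the role lists and for high peaks elsewhere. The chromosome 4 peaks and all lists were chosen with earlier results of these data known. The lgs, Rnf11, I element and tandem repeat peaks, the grouping of R1A1, I and Stalker2 copies and the sequences printed were chosen after their values were seen. Alternatives were height minimums of 60 and 80 RPKM, the 10000 highest peaks of each list, reciprocal overlap of 50%, and start site distances of 250 and 1000 bp. Added after seeing the data were leaving out summits in transposable element copies, 1 start site per gene, genes of at least 5000 bp, and height limits for 1360 copies. Depth per library is unknown from the lists.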

Additional observations from a re-analysis of the deposited data

How the results depend on the processing

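No paired analysis was possible because each list is the authors' average of both replicates. For the same reason no replicate could be left out. Of 62 alternative values for 14 results, 42 moved by no more than their limit and 20 moved by more. At 80 RPKM, 82 PGC and 27 somatic peaks remained, the somatic ones over 16650 bp, and at 60 RPKM 56 somatic peaks. Without summits in transposable element copies somatic peaks covered 19250 bp. Reciprocal overlap of 50% gave shares of 21.9% of PGC and 36.9% of somatic peaks, and 85.7% of somatic peaks of at least 60 RPKM overlapped a PGC peak. At 60 RPKM, 20 genes had a somatic start site peak and 36 a PGC one alone. A somatic start site peak alone was found at 1 gene within 1000 bp (JYalpha, 62.6 RPKM, on the tandem repeat) and at 1 gene, dati, with 1 start site per gene. That dati peak (77.3 RPKM) overlapped a PGC peak of 85.0 RPKM, which lay just outside the 500 bp limit. Promoter shares within 250 bp were 32.1% of PGC and 27.9% of somatic summits, and within 1000 bp 54.5% of PGC and 47.7% of somatic summits. Somatic peaks touched 4 copies of 1360 at 1 bp, and held a summit in 1 at 60 RPKM. Among the 10000 highest peaks, 15 copies held a PGC summit and 1 a somatic one. RPKM heights scale with all mapped reads of a library, so a height difference between the lists and a difference in reads outside peaks cannot be told apart.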
